A study of Homo sapiens with 12 samples.

Results

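The 10 genes described here encode 3 classical cadherins and 7 markers and regulators of the epithelial-mesenchymal transition (EMT), and they were selected by gene name from a table of 58302 genes. They are CDH1, CDH2, CDH3, VIM, FN1, ZEB1, SNAI2, ESRP1, GRHL2 and AXL. RNA was sequenced from BxPC-3 and CFPAC-1, both established human pancreatic adenocarcinoma cell lines, and from a gemcitabine (GEM)-resistant derivative of each, BxPC-3-GR and CFPAC-1-GR, with 3 replicates per group and 12 libraries in all. GEM is a nucleoside analog that blocks DNA synthesis. BxPC-3-GR had been brought to a final GEM concentration of 1000 nmol/L and CFPAC-1-GR to 400 nmol/L, and the parental lines carried no GEM selection. The sample records describe the morphology of BxPC-3-GR as mesenchymal and that of the other 3 groups as epithelial. Each parent is represented by 1 resistant line, so a change that came with GEM resistance and a change particular to that line cannot be told apart. The labels do not say whether replicates were separate cultures, so p-values measure the spread between these libraries, which may be technical.

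Classical cadherins are transmembrane proteins that join neighboring cells through their extracellular repeats and hold the actin cytoskeleton through catenins. In EMT, E-cadherin (CDH1) is typically lost while N-cadherin (CDH2), vimentin (VIM) and fibronectin (FN1) are gained. The exchange of E-cadherin for N-cadherin is known as the cadherin switch. ZEB1 and SNAI2 are transcriptional repressors that bind E-box motifs, including those of CDH1. GRHL2 and ESRP1 act on the epithelial side, GRHL2 as a transcription factor of junction genes and ESRP1 as a regulator of epithelial splicing. AXL is a receptor tyrosine kinase often found in mesenchymal carcinoma cells.

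Levels are given in FPKM, fragments scaled to the length of the gene and to the mapped fragments of each library, so levels of different genes can be set side by side. Each resistant line was compared with its parent by limma on log2(FPKM + 1) after genes whose mean fell below 1 FPKM had been removed, and log2FC values below are on that scale, which understates changes of low genes. A gene is said to have risen or fallen when its Benjamini-Hochberg adjusted p over all genes tested was below 0.05, and it was called significantly differentially expressed (SDE) when the absolute log2FC also exceeded 1. The depth implied by the steps between low values was 12700000 to 25100000 fragments per library, and Spearman correlations between libraries of a group were 0.965 to 0.981. The summed level of 8 pancreatic ductal epithelial markers was 792 to 992 FPKM in the BxPC-3 libraries and 1166 to 2947 FPKM in the CFPAC-1 libraries, against at most 4.12 FPKM for 8 fibroblast markers and at most 0.911 FPKM for 4 endothelial markers. In CFPAC-1-GR against CFPAC-1, log2FC followed the GC content of the gene (Spearman rho = -0.777 across 12030 genes, which are not independent), whereas in the BxPC-3 pair rho was 0.0388 across 11685 genes. The log2FC values of tested genes in the CFPAC-1 pair are therefore given also after a correction for GC content and length, called the corrected log2FC.

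Of the 10 genes, 9 passed this filter in each pair and ZEB1 did not. In BxPC-3-GR, 4 genes rose (CDH2, FN1, ESRP1 and GRHL2) and 4 fell (CDH3, VIM, SNAI2 and AXL), beside 26.2% of all tested genes that rose, 31.5% that fell and 57.7% that did either. In CFPAC-1-GR, 6 rose (CDH1, CDH2, FN1, SNAI2, ESRP1 and GRHL2) and 2 fell (VIM and AXL), beside 44.6% and 34.9% of all tested genes and 79.6% for both directions. After the correction FN1 and ESRP1 no longer passed there, SNAI2 was lower and CDH3 higher. The shares of all tested genes given here are before the correction. SDE calls were made for 4 members in the BxPC-3 pair, 2 upregulated (CDH2 and ESRP1) and 2 downregulated (VIM and AXL), where 7.76% of all tested genes were SDE, 4.14% upregulated and 3.62% downregulated. For CFPAC-1-GR, 3 members were upregulated (CDH2, FN1 and GRHL2) and VIM was downregulated, where 32.2% of all tested genes were SDE, 20.5% upregulated and 11.7% downregulated. The 2 groups did not overlap for 8 of the 9 tested members in each pair (nor for ZEB1), compared with 66.1% of tested genes in the BxPC-3 pair and 82.1% in the CFPAC-1 pair. The median log2FC of the 9 tested members was 0.07 in the BxPC-3 pair and 0.76 in the CFPAC-1 pair, where the medians of all genes were -0.05 and 0.13. The corrected median of the members in the CFPAC-1 pair was 0.07, beside a corrected median of 0.14 for all genes.

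**Figure D1:**
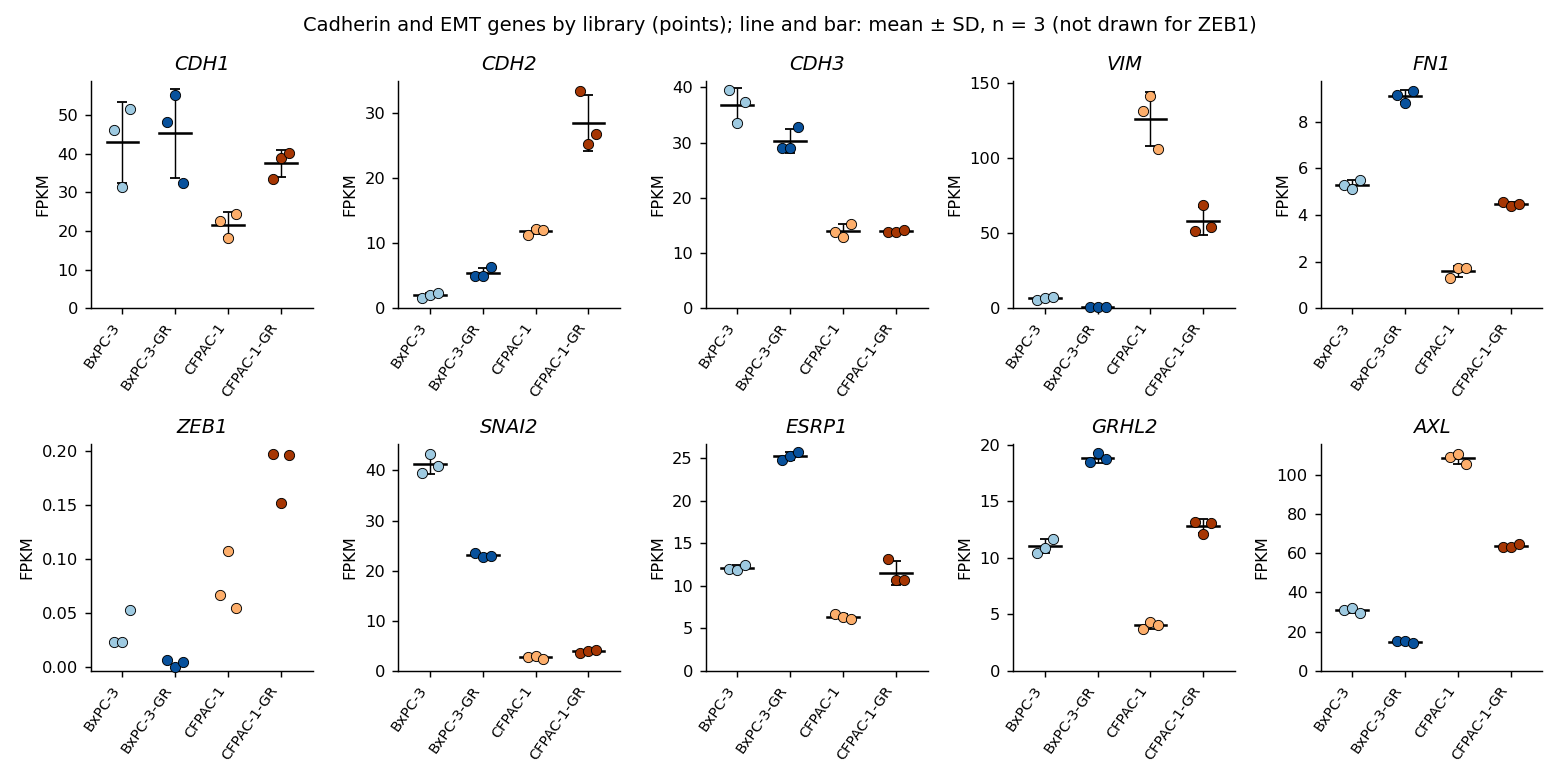
FPKM of the 10 genes in each of the 12 libraries (linear axes, 1 panel per gene), with points for replicates and lines and bars for mean ± SD (n = 3), which are not drawn for ZEB1. VIM and AXL were lower in every GEM-resistant library than in any library of the parent, and CDH2, FN1, ESRP1 and GRHL2 were higher. The groups did not overlap for 66.1% of tested genes in the BxPC-3 pair and 82.1% in the CFPAC-1 pair. The levels are not corrected for GC content and length. In the CFPAC-1 pair the corrected log2FC was 0.0044 for FN1 and 0.074 for ESRP1.

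CDH1, on chromosome 16 (GRCh38, 68737225 to 68835548, plus strand; ENSG00000039068), had the highest mean of the members in both BxPC-3 groups, overlapping SNAI2 in BxPC-3 and CDH3 in BxPC-3-GR. Its level in BxPC-3 was 46.1, 31.4 and 51.6 FPKM (43.0 ± 10.5, SD, n = 3), and in BxPC-3-GR it was 48.2, 55.2 and 32.5 FPKM (45.3 ± 11.6, SD, n = 3). The groups overlapped, and the replicates of each group varied more for CDH1 than the groups differed. The log2FC was 0.07 with a 95% interval of -0.54 to 0.68 (limma adjusted p = 0.83). No loss of E-cadherin RNA was detectable in the line labelled mesenchymal, although the interval leaves room for a change in either direction. In CFPAC-1 the level was 22.5, 18.1 and 24.4 FPKM (21.6 ± 3.23, SD, n = 3), and in CFPAC-1-GR it was 33.6, 38.8 and 40.1 FPKM (37.5 ± 3.48, SD, n = 3). Every CFPAC-1-GR library lay above every CFPAC-1 library, and CDH1 rose with a log2FC of 0.77 (SE 0.13, limma adjusted p = 0.0010) and a corrected log2FC of 0.65 (adjusted p = 0.0043). In these bulk samples, fewer cells that express a gene and less RNA of it per cell cannot be told apart.

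CDH2, the N-cadherin gene on chromosome 18 (27950966 to 28177446, minus strand), was low in BxPC-3 and higher in CFPAC-1. It stood at 1.57, 2.10 and 2.32 FPKM in BxPC-3 (1.99 ± 0.386, SD, n = 3) and at 4.86, 4.97 and 6.35 FPKM in BxPC-3-GR (5.40 ± 0.830, SD, n = 3). The mean was 2.71-fold higher in the resistant line without overlap, with a log2FC of 1.10 (SE 0.13, limma adjusted p = 0.00068). The SDE call was lost, at a log2FC of 0.99 each, without BxPC-3 replicate 1 or without BxPC-3-GR replicate 3. CFPAC-1 held 11.3, 12.2 and 12.01 FPKM (11.8 ± 0.477, SD, n = 3), and CFPAC-1-GR held 33.3, 25.2 and 26.8 FPKM (28.4 ± 4.26, SD, n = 3). CDH2 rose there too, 2.40-fold in the mean, with a log2FC of 1.19 (SE 0.11, limma adjusted p = 5.8e-05) and a corrected log2FC of 0.74 (adjusted p = 0.0013), which is no longer past the SDE threshold.

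CDH3, which encodes P-cadherin, ends 14608 bases before CDH1 on the same strand of chromosome 16 (68636189 to 68722616). Its level was 39.5, 33.5 and 37.4 FPKM in BxPC-3 (36.8 ± 3.03, SD, n = 3) and 28.999, 28.95 and 32.8 FPKM in BxPC-3-GR (30.2 ± 2.20, SD, n = 3). The fall was small, with a log2FC of -0.27 (SE 0.083, limma adjusted p = 0.031), and the highest resistant library came close to the lowest parental library. CFPAC-1 and CFPAC-1-GR stood at 13.9, 12.8 and 15.2 FPKM (13.98 ± 1.20, SD, n = 3) and 13.8, 13.8 and 14.1 FPKM (13.9 ± 0.170, SD, n = 3). These groups overlapped and gave a log2FC of -0.0039 (95% interval -0.19 to 0.18, limma adjusted p = 0.97), against a corrected log2FC of 0.36 (adjusted p = 0.0063).

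The 3 cadherins summed to a mean of 81.8 FPKM in BxPC-3 and 81.0 FPKM in BxPC-3-GR, of which CDH2 made up 2.49% and 6.79%. CDH3 made up 45.4% of the sum in BxPC-3 and 37.9% in BxPC-3-GR. In CFPAC-1 the sum was 47.4 FPKM and in CFPAC-1-GR 79.8 FPKM, and the share of CDH2 was 25.1% and 35.6%. CDH1 exceeded CDH2 in all 12 libraries, by 29.5-fold at most in BxPC-3 replicate 1 and by 1.01-fold at least in CFPAC-1-GR replicate 1. The log2 ratio of CDH2 to CDH1 averaged -4.42 in BxPC-3 and -3.05 in BxPC-3-GR, without overlap of the libraries, a difference of 1.37 (exact permutation test, two-sided p = 0.10, the smallest that 3 against 3 allows). For CFPAC-1 and CFPAC-1-GR it averaged -0.86 and -0.41, with overlap, a difference of 0.46 (exact permutation test, two-sided p = 0.30). These sums, shares and ratios were not corrected for GC content and length. In the CFPAC-1 pair the corrected log2FC of CDH2 (0.74) was close to that of CDH1 (0.65), against 1.19 and 0.77 before correction. That of CDH3 was 0.36. The change in the CDH2 share and ratio there therefore depends on the correction. CDH1 was thus the larger of the pair in both resistant lines, with a higher CDH2 level beside it.

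**Figure D2:**
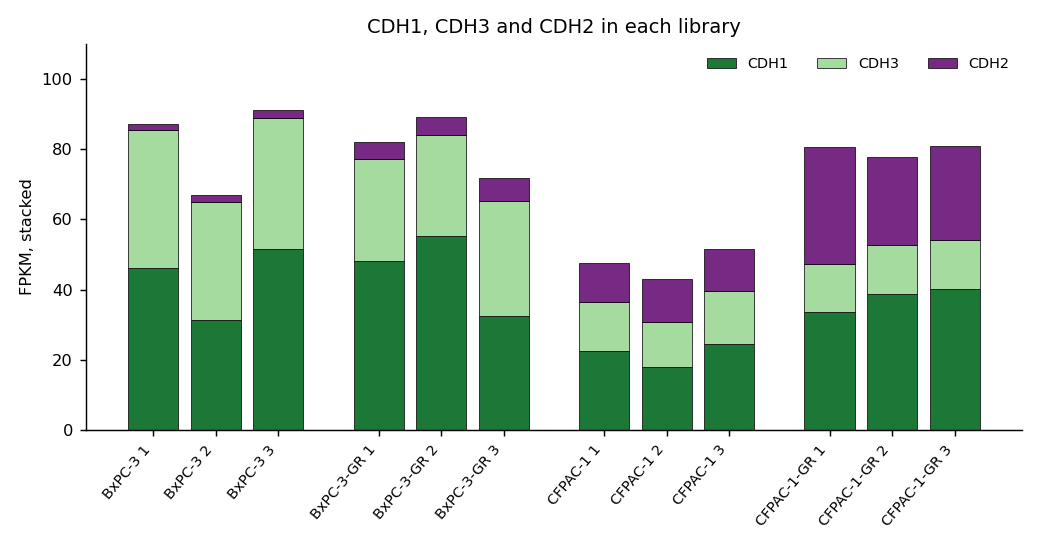
FPKM of CDH1, CDH3 and CDH2 stacked for each of the 12 libraries. The CDH2 segment is 2.49% of the bar on average in BxPC-3 and 6.79% in BxPC-3-GR, 25.1% in CFPAC-1 and 35.6% in CFPAC-1-GR, and the CDH1 segment is larger than the CDH2 segment in every library. The levels are not corrected for GC content and length.

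VIM, on chromosome 10 (17228259 to 17237593, plus strand), encodes the intermediate filament of mesenchymal cells. BxPC-3 had 5.51, 6.995 and 7.25 FPKM (6.59 ± 0.937, SD, n = 3), and BxPC-3-GR had 0.686, 0.861 and 0.891 FPKM (0.813 ± 0.111, SD, n = 3). The mean was 8.10-fold lower in the resistant line, and VIM fell with a log2FC of -2.06 (SE 0.10, limma adjusted p = 2.9e-05), the largest change of any member in that pair, in the line labelled mesenchymal. CFPAC-1 expressed far more VIM, at 131, 141 and 106 FPKM (126 ± 18.1, SD, n = 3), and CFPAC-1-GR had 51.2, 68.7 and 53.8 FPKM (57.9 ± 9.41, SD, n = 3). The mean was 2.18-fold lower, with a log2FC of -1.11 (SE 0.15, limma adjusted p = 0.00038) and a corrected log2FC of -1.35 (adjusted p = 0.00040). VIM overlaps VIM-AS1 on the opposite strand, and whether fragments were counted by strand is not given in the sources used here. A list of 6 immune markers summed to less in the resistant libraries, without correction. The sum was 3.21 to 4.45 FPKM in BxPC-3 and 1.65 to 2.02 FPKM in BxPC-3-GR. It was 38.6 to 48.5 FPKM in CFPAC-1 and 15.1 to 18.2 FPKM in CFPAC-1-GR. The markers did not all fall. In the BxPC-3 pair 1 was tested and fell, beside 31.5% of all tested genes. In the CFPAC-1 pair 2 of 3 tested fell, beside 34.9%, and CD14 stood at 3.33 and 3.92 FPKM (limma adjusted p = 0.39). The log2FC there was 0.16 for CD14, -1.42 for CD68 and -1.81 for LYZ. The corrected log2FC was 1.10 for CD14, -0.69 for CD68 and -2.40 for LYZ. PTPRC, the defining leukocyte gene of that list, was listed at 0 in all 12 libraries.

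FN1, on chromosome 2 (215360440 to 215436172, minus strand), encodes the matrix protein fibronectin. It was present at 5.30, 5.11 and 5.50 FPKM in BxPC-3 (5.30 ± 0.195, SD, n = 3) and at 9.13, 8.82 and 9.33 FPKM in BxPC-3-GR (9.09 ± 0.256, SD, n = 3). FN1 rose with a log2FC of 0.68 (SE 0.051, limma adjusted p = 0.00011), and the replicates of each group were close together. In CFPAC-1 the values were 1.31, 1.73 and 1.71 FPKM (1.58 ± 0.237, SD, n = 3), and in CFPAC-1-GR they were 4.55, 4.38 and 4.46 FPKM (4.46 ± 0.0881, SD, n = 3). The log2FC was 1.08 (SE 0.084, limma adjusted p = 2.7e-05), and the gene has a GC content of 42.2%. The corrected log2FC was 0.0044 (adjusted p = 0.97). VIM and FN1, both read as mesenchymal markers, thus changed in opposite directions in BxPC-3-GR.

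AXL, on chromosome 19 (41219203 to 41261766, plus strand), fell in both resistant lines. Its level was 31.3, 31.9 and 29.4 FPKM in BxPC-3 (30.8 ± 1.30, SD, n = 3) and 15.1, 15.1 and 14.4 FPKM in BxPC-3-GR (14.9 ± 0.404, SD, n = 3). The log2FC was -1.003 (SE 0.054, limma adjusted p = 3.5e-05), at the edge of the SDE threshold. The SDE call was lost with either scaling (-0.95 and -0.997) and without BxPC-3 replicate 1 (-0.99), BxPC-3 replicate 2 (-0.98) or BxPC-3-GR replicate 3 (-0.98). CFPAC-1 had 109, 111 and 105 FPKM (108 ± 2.68, SD, n = 3), and CFPAC-1-GR had 63.3, 63.0 and 64.5 FPKM (63.6 ± 0.811, SD, n = 3). AXL fell there with a log2FC of -0.76 (SE 0.060, limma adjusted p = 2.9e-05) and a corrected log2FC of -0.35 (adjusted p = 0.0026).

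VIM and AXL are the members that fell in both lines. The 250 bases upstream of their RefSeq starts (GRCh38.p14, plus strand for both) are shown as a description. They were searched for the E-box and GRHL motifs bound by other members, and for the GC box and AP-1 motif. The RefSeq starts lie 18 and 20 bases from the starts of the annotation used for the table. Of the 10 genes, 5 had a promoter in the RefSeq table. The VIM window is chr10:17227991-17228240 and the AXL window chr19:41218973-41219222. Capitals mark the GC box (GGGCGG) and the E-box bound by ZEB1 and SNAI2 (CAGGTG), each searched on both strands.
VIM: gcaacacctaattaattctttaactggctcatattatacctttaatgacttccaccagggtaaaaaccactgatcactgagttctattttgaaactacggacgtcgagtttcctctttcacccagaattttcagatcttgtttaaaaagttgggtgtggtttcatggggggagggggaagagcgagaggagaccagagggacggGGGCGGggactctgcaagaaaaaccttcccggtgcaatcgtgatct
AXL: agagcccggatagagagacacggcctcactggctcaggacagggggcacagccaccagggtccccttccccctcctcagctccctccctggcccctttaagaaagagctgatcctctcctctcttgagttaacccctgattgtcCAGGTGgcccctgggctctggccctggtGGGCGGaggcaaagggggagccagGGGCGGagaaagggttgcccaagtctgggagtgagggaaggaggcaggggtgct
The AXL window held a CAGGTG 106 bases and GC boxes 78 and 54 bases upstream of the start, and the VIM window held a GC box 46 bases upstream. No marked motif overlapped another. CAGGTG was present in 17.5% and GGGCGG in 42.6% of 35116 RefSeq promoter windows of this length. GGGCGG was also in the windows of CDH2 and FN1, which rose in BxPC-3-GR, and of ZEB1, so it was not particular to the genes that fell. CAGGTG was also in the ZEB1 window. The AP-1 motif TGANTCA (6.57% of windows) and the GRHL motif AACCGGTT (0.117%) were in neither window, which says only that these letters are not there.

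SNAI2, the gene of the repressor Slug on chromosome 8 (48917768 to 48921740, minus strand), was the EMT transcription factor with the higher level of the 2 in the list. BxPC-3 had 39.5, 43.3 and 40.9 FPKM (41.2 ± 1.93, SD, n = 3), and BxPC-3-GR had 23.4, 22.7 and 22.9 FPKM (23.0 ± 0.367, SD, n = 3). SNAI2 fell without overlap, with a log2FC of -0.81 (SE 0.054, limma adjusted p = 7.4e-05). CFPAC-1 had 2.68, 2.92 and 2.43 FPKM (2.67 ± 0.246, SD, n = 3), and CFPAC-1-GR had 3.65, 3.97 and 4.25 FPKM (3.96 ± 0.298, SD, n = 3). SNAI2 rose there with a log2FC of 0.43 (SE 0.082, limma adjusted p = 0.0022), while the corrected log2FC was -0.30 (adjusted p = 0.019). The direction of SNAI2 in the CFPAC-1 pair thus turned with the correction, and with median-of-ratios and upper-quartile scaling the adjusted p was 0.058 and 0.29.

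ZEB1, on chromosome 10 (31318495 to 31529814, plus strand), was near the limit of detection in every group. The 3 BxPC-3 libraries had 0.0230, 0.0229 and 0.0527 FPKM, and the BxPC-3-GR libraries had 0.00596, 0 and 0.00403 FPKM. At the implied depths these values stand for about 3, 4 and 8 fragments in BxPC-3 and for about 1, 0 and 1 in BxPC-3-GR. CFPAC-1 had 0.0669, 0.107 and 0.0546 FPKM (about 11, 12 and 6 fragments), and CFPAC-1-GR had 0.197, 0.152 and 0.196 FPKM (about 37, 23 and 27 fragments). The groups did not overlap in either pair, lower in BxPC-3-GR and higher in CFPAC-1-GR. Without the filter on low values the log2FC was -0.04 in the BxPC-3 pair (limma adjusted p = 0.28) and 0.14 in the CFPAC-1 pair (adjusted p = 0.027), both without the correction. ZEB1 spans the pseudogene SPTLC1P1 on the same strand, which was listed at 9.72 to 36.8 FPKM, so the assignment of its few fragments is uncertain.

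ESRP1, on chromosome 8 (94641074 to 94707466, plus strand), had 11.9, 11.9 and 12.4 FPKM in BxPC-3 (12.1 ± 0.317, SD, n = 3) and 24.7, 25.2 and 25.7 FPKM in BxPC-3-GR (25.2 ± 0.482, SD, n = 3). ESRP1 rose with a log2FC of 1.004 (SE 0.047, limma adjusted p = 2.2e-05), at the edge of the SDE threshold. The SDE call was lost without BxPC-3 replicate 1 (0.995), BxPC-3 replicate 2 (0.99) or BxPC-3-GR replicate 3 (0.99) and with the correction (0.9995). In CFPAC-1 it had 6.69, 6.36 and 6.08 FPKM (6.38 ± 0.310, SD, n = 3), and in CFPAC-1-GR it had 13.2, 10.7 and 10.7 FPKM (11.5 ± 1.42, SD, n = 3). The log2FC there was 0.76 (SE 0.095, limma adjusted p = 0.00027) and the corrected log2FC 0.074 (adjusted p = 0.53).

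GRHL2, also on chromosome 8 (101492432 to 101669726, plus strand), had 10.5, 10.9 and 11.7 FPKM in BxPC-3 (10.998 ± 0.620, SD, n = 3) and 18.4, 19.3 and 18.7 FPKM in BxPC-3-GR (18.8 ± 0.442, SD, n = 3). GRHL2 rose with a log2FC of 0.72 (SE 0.057, limma adjusted p = 0.00013). The rise was larger in the CFPAC-1 pair, where the values were 3.71, 4.28 and 4.07 FPKM in the parent (4.02 ± 0.290, SD, n = 3) and 13.2, 12.1 and 13.1 FPKM in the resistant line (12.8 ± 0.624, SD, n = 3). The log2FC was 1.46 (SE 0.075, limma adjusted p = 7.2e-06), the largest of any member in that pair, and the corrected log2FC was also 1.46.

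**Figure D3:**
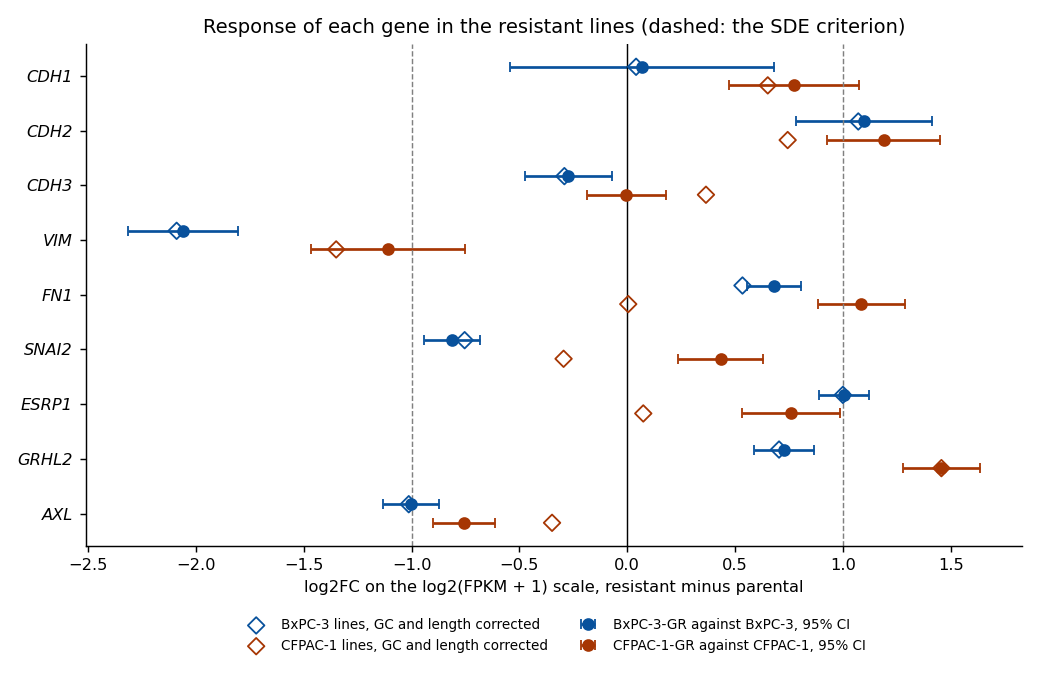
log2FC of the 9 tested genes in the BxPC-3 and CFPAC-1 pairs, with 95% intervals, as fitted and after the GC content and length correction. VIM and AXL lay below 0 and CDH2 and GRHL2 above 0 in both pairs, and the corrected values of FN1 and ESRP1 in the CFPAC-1 pair were near 0 (0.0044 and 0.074).

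The responses of the lines were then compared with an interaction term over all 12 libraries, given as the CFPAC-1 response minus the BxPC-3 response. The term passed an adjusted p of 0.05 for 6 of 9 members, with positive terms before correction (CDH3 and AXL turned negative with either scaling), beside 76.6% of all tested genes (44.9% positive and 31.6% negative). It also exceeded 1 in size for 1 member, SNAI2, beside 38.0% of all tested genes (23.6% positive). SNAI2 had the largest term before correction, 1.24 (limma adjusted p = 4.5e-07), and after correction it was 0.51 (adjusted p = 0.00071). The largest corrected term was that of ESRP1, at -0.88 (limma adjusted p = 3.3e-05), where the term before correction was -0.25 (adjusted p = 0.053). FN1 went from 0.40 to -0.47 with the correction, AXL from 0.24 to 0.69 and CDH3 from 0.27 to 0.68. VIM fell more in the BxPC-3 pair (0.95, limma adjusted p = 0.0010, corrected 0.76), and GRHL2 rose more in the CFPAC-1 pair (0.73, adjusted p = 1.9e-05, corrected 0.77). The CDH1 term was 0.70 (adjusted p = 0.054), and CDH2 showed no detectable difference between the lines, at 0.09 (adjusted p = 0.65).

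The order of the 4 groups differed from gene to gene. VIM ranged 155-fold between group means in the order CFPAC-1, CFPAC-1-GR, BxPC-3 and BxPC-3-GR, with no overlap of neighbors, and AXL had the same order over 7.28-fold. SNAI2 ran from BxPC-3 through BxPC-3-GR and CFPAC-1-GR to CFPAC-1 over 15.4-fold. For ESRP1 the order was BxPC-3-GR, BxPC-3, CFPAC-1-GR and CFPAC-1 over 3.95-fold, and the neighbors BxPC-3 and CFPAC-1-GR overlapped. FN1 followed the same order over 5.74-fold, without overlap of neighbors. For FN1, ESRP1 and SNAI2, CFPAC-1-GR stood above CFPAC-1 in these levels, which are not corrected for GC content. The corrected log2FC in that pair was 0.0044 for FN1, 0.074 for ESRP1 and -0.30 for SNAI2. For GRHL2 both resistant lines stood above both parental lines, in the order BxPC-3-GR, CFPAC-1-GR, BxPC-3 and CFPAC-1 over 4.68-fold. CDH2 was highest in CFPAC-1-GR, followed by CFPAC-1, BxPC-3-GR and BxPC-3 over 14.3-fold. CDH1 spanned 2.09-fold, with BxPC-3-GR, BxPC-3 and CFPAC-1-GR overlapping in turn above CFPAC-1, and CDH3 spanned 2.64-fold, with overlap between the CFPAC-1 groups. Within CFPAC-1 the highest means were those of VIM and AXL, which overlapped, and within CFPAC-1-GR those of AXL and VIM, which overlapped too.

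**Figure D4:**
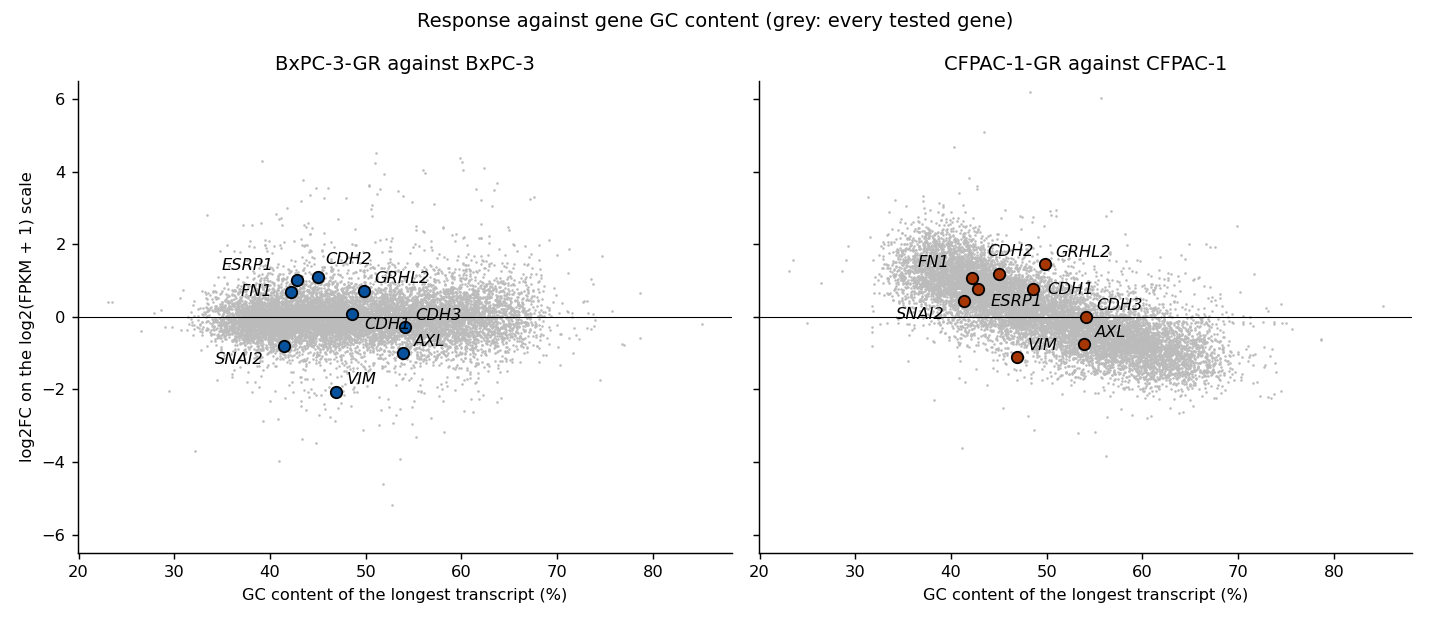
log2FC against the GC content of the longest transcript for every tested gene (grey), with the 9 tested members named. In the CFPAC-1 pair the cloud falls with GC content (rho = -0.777), and in the BxPC-3 pair it is flat (rho = 0.0388).

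Related gene lists were read in the same tests, where 26.2% of all tested genes rose and 31.5% fell in the BxPC-3 pair. Of 17 epithelial adhesion and polarity genes tested in the BxPC-3 pair, 13 rose and 2 fell, with a median log2FC of 0.57 against -0.05 for all genes. SCRIB, a polarity scaffold, rose from 7.76 to 23.0 FPKM (log2FC 1.45, limma adjusted p = 2.7e-05). Of 10 tested epithelial transcription and splicing regulators besides the members, 6 rose and 0 fell, and ELF3, an epithelial ETS factor, rose from 3.96 to 24.9 FPKM (log2FC 2.38, limma adjusted p = 1.1e-05). KLF5, a zinc finger factor of epithelial cells, rose from 53.9 to 92.4 FPKM (log2FC 0.77, adjusted p = 0.00057). Among 10 tested mesenchymal structural and matrix genes, 3 rose and 5 fell. S100A4, a calcium-binding protein of migratory cells, rose from 2.35 to 18.1 FPKM (log2FC 2.51, limma adjusted p = 6.6e-06), and MSN, which links actin to the membrane, fell from 268 to 95.3 FPKM (log2FC -1.48, adjusted p = 5.5e-06).

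Beyond CDH1, CDH2 and CDH3, 18 other cadherins were in the list and 2 passed the filter in each pair. CDH6, a type II cadherin, rose in BxPC-3-GR from 3.55 ± 0.156 to 18.4 ± 0.126 FPKM (SD, n = 3), with a log2FC of 2.09 (limma adjusted p = 2.6e-06), which is larger than that of any of the 3 cadherins above. In the CFPAC-1 pair CDH6 did not pass the filter, at 1.16 ± 0.168 FPKM in CFPAC-1 and 0.369 ± 0.0383 FPKM in CFPAC-1-GR (SD, n = 3). CDH24 fell in CFPAC-1-GR from 25.2 to 10.98 FPKM (log2FC -1.13, limma adjusted p = 4.5e-05), with a corrected log2FC of -0.08. Of 11 adherens junction partners tested in each pair, 2 rose and 2 fell in BxPC-3-GR, and NECTIN4 rose with a log2FC of 1.46. In CFPAC-1-GR, where 44.6% of all tested genes rose and 34.9% fell, 5 of these partners rose and 3 fell, with a median of 0.27 and a corrected median of -0.15. JUP, the gene of plakoglobin, fell there from 220 to 128 FPKM (log2FC -0.78, limma adjusted p = 0.00044), with a corrected log2FC of 0.13.

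All list counts of the CFPAC-1 pair stand beside 44.6% of tested genes that rose and 34.9% that fell. The epithelial adhesion list gave 8 genes that rose and 9 that fell, with a median of -0.48 and a corrected median of 0.22. SCRIB, which rose in BxPC-3-GR, fell in CFPAC-1-GR from 25.9 to 8.74 FPKM (log2FC -1.46, limma adjusted p = 1e-05), with a corrected log2FC of -0.51. CDS1, an enzyme of phospholipid synthesis, rose there from 2.25 to 11.7 FPKM (log2FC 1.98, limma adjusted p = 6.3e-06), with a corrected log2FC of 1.24. Of 11 tested epithelial transcription and splicing regulators 5 rose and 5 fell, with a median of 0.10 and a corrected median of 0.41. EHF, an epithelial ETS factor, rose from 7.92 ± 0.201 to 49.998 ± 15.9 FPKM (SD, n = 3), with a log2FC of 2.46 (limma adjusted p = 6.8e-05) and a corrected log2FC of 1.76. FOXA2, an endodermal factor, fell from 14.9 to 6.52 FPKM (log2FC -1.08, limma adjusted p = 2.1e-05), with a corrected log2FC of -0.18. ELF3, which rose in BxPC-3-GR, fell in CFPAC-1-GR from 47.7 to 32.7 FPKM (log2FC -0.53, limma adjusted p = 0.00048), with a corrected log2FC of -0.05. Desmosome genes had a median of 1.17 there over 6 tested genes, 5 of which rose, and the corrected median was 0.80. DSG2, a desmosomal cadherin, rose from 23.3 to 82.5 FPKM (log2FC 1.77, limma adjusted p = 1.3e-05), with a corrected log2FC of 0.94. In the BxPC-3 pair 4 of 9 desmosome genes rose and 3 fell, and DSC2, another desmosomal cadherin, rose from 2.35 to 8.79 FPKM (log2FC 1.55, limma adjusted p = 1.3e-05). Of 11 other EMT transcription factors, TCF3 alone passed the filter in the BxPC-3 pair, with a log2FC of 0.06 (limma adjusted p = 0.53). All 5 tested in the CFPAC-1 pair fell, with a median of -0.73 and a corrected median of 0.18. FOXC2 fell from 18.2 to 6.89 FPKM (log2FC -1.28, limma adjusted p = 2.4e-05), with a corrected log2FC of -0.18. Of 11 tested mesenchymal genes in that pair, 3 rose and 7 fell, with a median of -0.67 and a corrected median of 0.01. CALD1, an actin-binding protein, rose from 0.66 to 3.44 FPKM (log2FC 1.41, limma adjusted p = 7.9e-05), with a corrected log2FC of 0.41, below the SDE threshold. TNC, a matrix glycoprotein, fell from 9.29 to 3.89 FPKM (log2FC -1.07, limma adjusted p = 0.00010), with a corrected log2FC of -0.83, which also misses it. The TAM family holds AXL, MERTK and TYRO3 as receptors and GAS6 and PROS1 as ligands. GAS6, the ligand of AXL, rose in BxPC-3-GR from 0.814 to 1.46 FPKM (log2FC 0.44, limma adjusted p = 0.00041). It rose in CFPAC-1-GR from 0.537 to 3.83 FPKM (log2FC 1.65, limma adjusted p = 9.1e-06), with a corrected log2FC of 2.51. TYRO3 in the BxPC-3 pair had 1.998 and 2.13 FPKM (log2FC 0.06, limma adjusted p = 0.35), and in the CFPAC-1 pair it fell from 4.46 to 1.77 FPKM (log2FC -0.99, adjusted p = 0.00074, corrected log2FC -0.86). Of the 8 ductal markers, 5 rose and 0 fell in the BxPC-3 pair, with a median of 0.29, beside 26.2% and 31.5% of all tested genes. In the CFPAC-1 pair 1 rose and 5 fell, with a median of -0.71 and a corrected median of -0.0015. KRT19, a ductal keratin, stood at 470 and 483 FPKM in the BxPC-3 pair (log2FC 0.04, limma adjusted p = 0.59). It fell from 1573 to 531 FPKM in the CFPAC-1 pair (log2FC -1.57, limma adjusted p = 7.3e-06), with a corrected log2FC of -0.47.

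**Figure D5:**
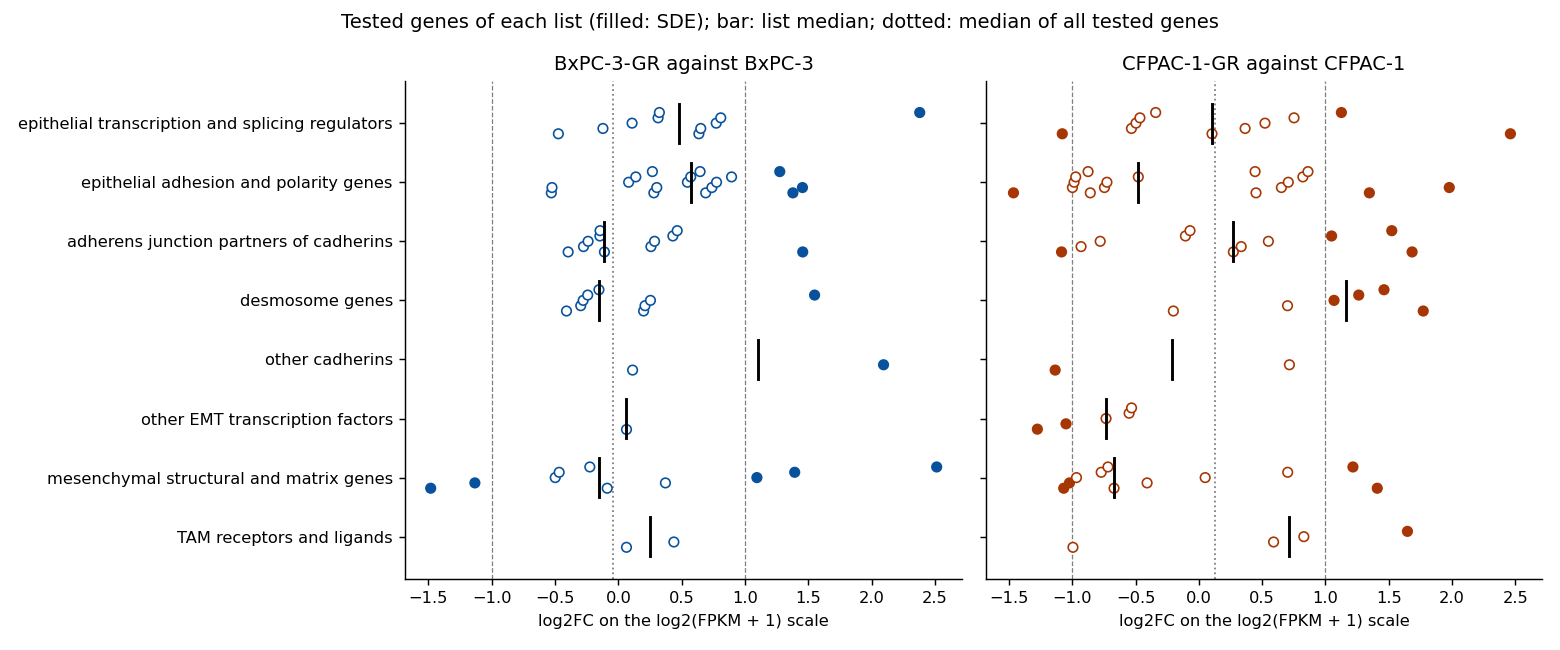
log2FC of each tested gene of the related lists in both pairs, with a bar for the list median. The epithelial adhesion and polarity list had a median of 0.57 in the BxPC-3 pair and -0.48 in the CFPAC-1 pair. The values drawn are uncorrected, and the corrected median of that list in the CFPAC-1 pair was 0.22.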

How the data were processed

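RNA sequencing of 12 libraries was analyzed, 3 for each parental line and 3 for each GEM-resistant line. The authors deposited 1 table of FPKM, which scales fragments to gene length and library size. Their methods name GRCh38 with Ensembl annotation, and the submitters' processing notes list hg19 and GRCh38, Trimmomatic 0.27, FastQC 0.10.1 and TopHat2 2.0.8. The counting program is not given in the sources used here. The labels give a single medium for all groups, and the methods name another for CFPAC-1.

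GENCODE positions matched 57980 of 58302 genes. limma 3.58.1 in R 4.3.3 (lmFit, eBayes) was fitted to log2(FPKM + 1) with no block for genes averaging 1 FPKM or more, for each pair on its 6 libraries and for the interaction on all 12. Code was tested on simulated data. Depth was inferred from steps between low values, of which 63.4% to 74.6% were whole within 0.05 fragments, so counts were not recovered. Intervals are 95%.

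All 10 members were named, and from each further list the gene with the largest SDE increase, the largest SDE decrease and the highest mean, of which those that bear most on the members are given and 1 is not reported here. The members and lists were chosen with earlier results of these data known. The settings varied were the pseudocount (0.1), the filter (none), the libraries fitted (all 12), the replicate number as a block, a natural spline in GC content and length (5 degrees of freedom), 2 scalings, protein-coding genes and each library left out. A pseudocount of 0.1 with a minimum mean of 0.1 FPKM was added after seeing the data.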

Additional observations from a re-analysis of the deposited data

Results flagged for a closer look

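For 6 of 9 tested members the response differed between the lines by the interaction test, beside 76.6% of all tested genes. The term is given as the CFPAC-1 response minus the BxPC-3 response on the log2 scale. SNAI2 had a term of 1.24, with a fall in BxPC-3-GR and a rise in CFPAC-1-GR, and after the GC content and length correction the term was 0.51 and the CFPAC-1-GR value -0.30. VIM had a term of 0.95 and GRHL2 a term of 0.73. FN1 had a term of 0.40, and CDH3 a term of 0.27. AXL had a term of 0.24. After the same correction the VIM term was 0.76, the GRHL2 term 0.77, the FN1 term -0.47, the CDH3 term 0.68 and the AXL term 0.69. With median-of-ratios scaling the AXL term was -0.11 and the CDH3 term was -0.072. ESRP1 did not pass before correction (-0.25, limma adjusted p = 0.053), and its corrected term was -0.88 (adjusted p = 3.3e-05).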

How the results depend on the processing

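Over all genes the SDE count was 909 in the BxPC-3 pair, 1429 with a pseudocount of 0.1 and 2665 with the added setting. The CFPAC-1 pair gave 3880, and 1143 with the GC content and length correction, 1144 with the correction and the replicate block, and 8320 with the added setting. The interaction count was 4643, 2397 with the correction and 2399 with the correction and block. Scaling moved the median of all genes in the CFPAC-1 pair by -0.25 (median-of-ratios) and -0.36 (upper-quartile). The upregulated and downregulated counts there were 2473 and 1407, 1715 and 2285 with median-of-ratios scaling, and 1454 and 2652 with upper-quartile scaling. Those of the interaction were 2885 and 1758, 2003 and 2576, and 1865 and 2908.

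Of the members, 2 were upregulated in the BxPC-3 pair, 1 with the correction (also with the block) and 0 to 2 without 1 library. Downregulated members numbered 2, 1 with either scaling and 1 to 2 without 1 library. ESRP1 and AXL missed the threshold without BxPC-3 replicate 1 or 2 or BxPC-3-GR replicate 3. Of CFPAC-1-GR calls, 3 were upregulated and 1 with the correction, the correction and block, or either scaling, and downregulated members went from 1 to 2 with either scaling. The interaction called 1 member, 2 with a pseudocount of 0.1, 0 with the correction, the correction and block, or either scaling, and 1 to 2 without 1 library (2 without BxPC-3 replicate 1, CFPAC-1 replicate 2 or CFPAC-1-GR replicate 1).

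CDH1 in the BxPC-3 pair ranged from -0.14 to 0.29 without 1 library, at -0.14 and -0.09 without replicate 2 of either group. CDH3 in the CFPAC-1 pair became 0.36 with the correction, with or without the block, and ranged from -0.060 to 0.055 without 1 library, at 0.055 without CFPAC-1 replicate 3 and 0.0024 without CFPAC-1-GR replicate 1. SNAI2 became -0.30 with the correction, with or without the block. The CDH2 interaction became -0.15 with a pseudocount of 0.1, -0.30 with the correction (with or without the block), -0.24 and -0.36 with the scalings, and -0.022 to 0.20 without 1 library (-0.022 without CFPAC-1-GR replicate 1). The CDH3 interaction became -0.072 and -0.18 with the scalings, FN1 -0.47 with the correction (with or without the block), and AXL -0.11 and -0.23 with the scalings. The cause of these shifts was not tested.

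Same-numbered replicates of a pair correlated between -0.14 and 0.096 in their deviations, so the numbers were not treated as a pairing. The replicate block gave 908 SDE genes in the BxPC-3 pair and 3883 in the CFPAC-1 pair. ZEB1 rested on at most 37 implied fragments in a library.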

Other observations

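Genes near the members on the chromosome were described in windows chosen after the values were seen. Within 1 Mb of CDH1, 38 genes were tested in the BxPC-3 pair, of which 26 fell and 0 rose, with a median log2FC of -0.45 while CDH1 itself had 0.07. For CFPAC-1-GR, 6 of 38 genes in that window rose and 14 fell, with a median of -0.13 and a corrected median of 0.19. Within 1 Mb of AXL, 28 of 36 tested genes fell and 0 rose, with a median of -0.60. For CFPAC-1-GR 37 of 42 genes in the AXL window fell, with a median of -0.90 and a corrected median of -0.08. Between ESRP1 and GRHL2 on chromosome 8, 28 genes were tested in the BxPC-3 pair, of which 16 rose and 2 fell, with a median of 0.35. For CFPAC-1-GR 18 of 26 genes there rose, with a median of 0.81 and a corrected median of 0.23. The share of all tested genes that fell in the BxPC-3 pair was 31.5%, and 26.2% rose. For CFPAC-1-GR 34.9% fell and 44.6% rose, and the median of all tested genes was 0.13.

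The genes whose pattern over the 12 libraries was most like a member were found by the root mean square difference of centered log2(FPKM + 1) over 12210 genes, as a description. For VIM they were VAMP5 (0.39), CTGF (0.58) and SHISA2 (0.64). For AXL they were LINP1 (0.092), PTPRS (0.14) and TUBB2A (0.15). For CDH1 they were AL450487.1 (0.21), DNAJC24 (0.22) and AC106760.2 (0.22). The group means of these CDH1 neighbors were 0.235 to 2.36 FPKM, against 21.6 to 45.3 FPKM for CDH1. At such low levels the log2(FPKM + 1) scale understates changes, so the likeness to CDH1 is weak evidence of a shared pattern.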
